A study of Mus musculus with 4 samples.

Results

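The transcription factors of the MYC and MAX network were examined as 10 genes taken by symbol from the deposited count tables, out of 25239 symbols in all. They were 3 MYC activators (Myc, Mycn, Mycl), 5 repressors of the MXD and MNT type (Mxd1, Mxd3, Mxd4, Mxi1, Mnt) and 2 genes of the MLX arm (Mlx, Mlxip). All 10 passed the filter on low counts. The cells were mouse embryonic stem cells (mESC) of the genotype Ogt fl/fl, in which loxP sites flank the gene of O-GlcNAc transferase, the enzyme that attaches N-acetylglucosamine to serines and threonines of nuclear and cytosolic proteins. The Ogt iKO group (2 libraries) had 6 days of 4-hydroxytamoxifen (4-OHT), and the control group (2 libraries) had the same genotype and no 4-OHT. All cells grew with LIF on feeder fibroblasts and were sorted as viable cells, with antibodies to CD90.2 and CD326 meant to separate them from the feeders. The 4-OHT cultures were also sorted for YFP, so the ligand and that sort cannot be told apart from the loss of Ogt. The recombinase, its driver and the number of clones are not given in the sources used here. Nor do the labels say whether the libraries of a group came from separate cultures, so p-values measure the spread between these libraries, which may be technical.

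MYC proteins bind DNA as dimers with MAX, at sites called E-boxes, and raise the transcription of genes for ribosome production, metabolism and growth. MXD proteins, MXI1 and MNT compete for MAX and bring SIN3 and histone deacetylases to the same sites. MLX is a MAX-like protein that pairs with MLXIP (MondoA) or MLXIPL (ChREBP), which respond to glucose-derived metabolites, and with some of the repressors. In mESC, MYC and MYCN are known for sustaining growth and self-renewal.

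Promoter windows show where the E-box, the site read by the network, stands in its own genes. Windows ran from 250 bases before to 50 bases after the annotated start (RefSeq, GRCm38.p6). Of the 13 network genes (the 10 members, Max, Mga and Mlxipl), 12 had a window and Myc had none. The palindrome CACGTG was held by 2349 of all 32851 windows (7.15%), or by 2187 of all 27025 genes with a window (8.09%). Among the members it was found for Mxd4, Mnt and Mlx, which are shown because these genes respectively rose, fell and did not pass the threshold in Ogt iKO. The window of Max and 1 of the 2 windows of Mlxipl held it as well. The letters TTTNGCGC, searched on both strands as an E2F-like motif, were held by 452 windows (1.38%). Among the members only the Mycn window held them, with 3 matches that partly overlap, and it is shown because Mycn fell most of the activators. This search was chosen after the data were seen. The windows are written 5′ to 3′ on the gene's strand, with CACGTG in capitals for Mxd4 (chr5:34187661-34187960, minus strand), Mnt (chr11:74830674-74830973, plus strand) and Mlx (chr11:101087040-101087339, plus strand), and TTTNGCGC in capitals for Mycn (chr12:12941787-12942086, minus strand).
Mxd4: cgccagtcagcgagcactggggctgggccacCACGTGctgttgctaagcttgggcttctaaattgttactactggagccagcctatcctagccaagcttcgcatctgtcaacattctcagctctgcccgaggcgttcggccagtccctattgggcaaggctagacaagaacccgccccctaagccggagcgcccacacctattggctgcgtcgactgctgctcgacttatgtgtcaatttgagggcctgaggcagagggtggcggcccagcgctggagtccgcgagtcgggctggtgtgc
Mnt: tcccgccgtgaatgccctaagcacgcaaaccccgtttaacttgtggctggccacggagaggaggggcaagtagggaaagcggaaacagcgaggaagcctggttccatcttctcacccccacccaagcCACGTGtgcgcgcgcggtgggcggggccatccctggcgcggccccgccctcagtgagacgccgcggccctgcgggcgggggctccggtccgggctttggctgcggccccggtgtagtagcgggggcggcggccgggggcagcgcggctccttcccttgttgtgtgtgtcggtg
Mlx: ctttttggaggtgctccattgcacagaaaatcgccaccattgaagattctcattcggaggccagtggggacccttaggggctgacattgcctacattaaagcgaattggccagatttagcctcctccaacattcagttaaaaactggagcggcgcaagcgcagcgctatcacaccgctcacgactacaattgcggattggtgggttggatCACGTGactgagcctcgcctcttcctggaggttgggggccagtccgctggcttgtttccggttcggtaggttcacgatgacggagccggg
Mycn: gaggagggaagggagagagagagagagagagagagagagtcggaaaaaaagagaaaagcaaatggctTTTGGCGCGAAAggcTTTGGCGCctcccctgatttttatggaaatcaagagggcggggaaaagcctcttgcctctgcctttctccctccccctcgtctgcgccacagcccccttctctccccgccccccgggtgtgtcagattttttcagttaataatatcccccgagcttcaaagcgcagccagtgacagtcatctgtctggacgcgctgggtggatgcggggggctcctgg
The centre of the E-box lay at position -216 from the start in Mxd4, -120 in Mnt and -37 in Mlx. These positions count from the start of the RefSeq transcript behind the window, which for Mnt and Mlx lies inside the outermost gene boundaries given for them here. A match describes the letters of a window and does not show that a factor was bound there.

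Library totals ran from 14668489 to 16504204 counts. The floor was taken as 3 counts, which were 0.175 to 0.196 CPM (counts per 1000000, with library sizes scaled by the trimmed mean of M-values, TMM). Ogt was at 12.85% of its control level, with 25.6 and 25.1 CPM in Ogt iKO against 191 and 203 CPM in control. Of 14525 genes tested, 4827 were higher in Ogt iKO and 4651 lower (edgeR quasi-likelihood fit, Benjamini-Hochberg adjusted p under 0.05). Scaling by library totals alone gave 6116 higher and 3282 lower and moved the all-gene median, on the log2 scale, from 0.02 to 0.19, so changes are given relative to the bulk of genes. In bulk libraries, fewer cells of a type and less RNA per cell cannot be told apart.

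Of the 10 members, 3 were higher (Mycl, Mxd4, Mlxip), 4 were lower (Myc, Mycn, Mxd3, Mnt) and 3 did not pass the threshold (Mxd1, Mxi1, Mlx). Over all genes tested, 65.3% were called, with 33.2% higher and 32.0% lower, so 7 calls among 10 members is near the background. The groups did not overlap for the same 7 members, against 83.2% of all genes tested (42.3% higher and 40.9% lower). An exact permutation test of a single gene cannot go below p = 0.333 with 2 libraries against 2, so each call rests on a spread shared across genes. Each of the 7 calls was made with the same sign in all 12 alternative fits. Within the activators and within the repressors, genes were called in opposite directions.

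**Figure D1:**
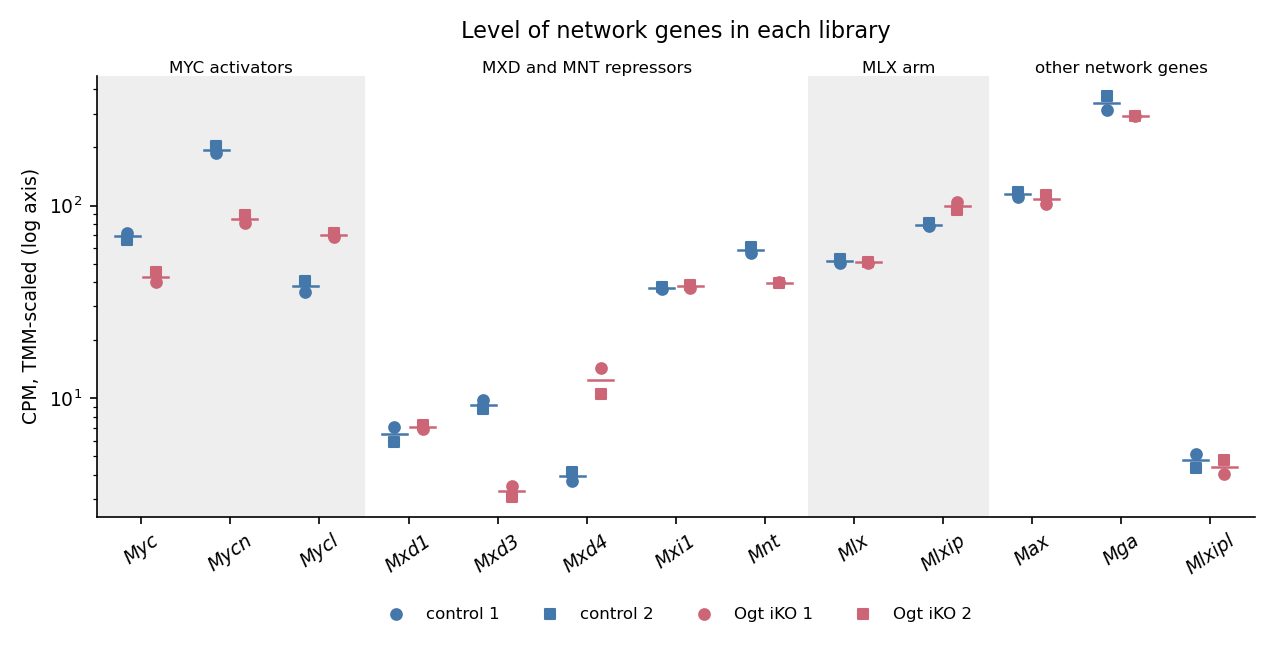
TMM-scaled CPM (log axis) of the 13 network genes in each of the 4 libraries, control in blue and Ogt iKO in red, with a circle for replicate 1, a square for replicate 2 and a short line at each group mean. Mycn stands at 187 and 203 CPM in control and at 81.4 and 89.4 CPM in Ogt iKO, and Mycl and Mxd4 have both Ogt iKO points above both control points.

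Mycn, a MYC gene best known from neuroblastoma and embryonic progenitors, had the highest level of the activators in control and fell. It lies on chromosome 12 from 12936093 to 12941836 (minus strand, GRCm38, as for all positions here) and had 1392 and 1387 counts in Ogt iKO replicates 1 and 2, against 2891 and 3107 in control replicates 1 and 2. In CPM these were 81.4 and 89.4 against 187 and 203, so both Ogt iKO libraries lay below both controls. The means were 85.4 CPM ± 5.65 and 195 CPM ± 11.1 (SD, n = 2 each). The Ogt iKO level of Mycn was 43.9% of control, with a log2 fold change of -1.19 (SE 0.0711, 95% interval -1.35 to -1.03, adjusted p = 4.345e-06, edgeR).

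Myc, the founding gene of the family, fell as well. It lies on chromosome 15 from 61985341 to 61990361 (plus strand), with Ogt iKO counts of 687 and 699 and control counts of 1118 and 1020. Its level was 40.2 and 45.1 CPM in Ogt iKO and 72.2 and 66.5 CPM in control, again with no overlap. The means were 42.6 CPM ± 3.45 and 69.4 CPM ± 4.06 (SD, n = 2 each). The log2 fold change of Myc was -0.70 (SE 0.0876, 95% interval -0.90 to -0.50, adjusted p = 0.0001663, edgeR), or 61.5% of the control level.

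Mycl, known first from lung cancer and the least abundant of the activators in control, moved the other way. Its gene, on chromosome 4 from 122995588 to 123002490 (plus strand), gave Ogt iKO counts of 1178 and 1124 and control counts of 554 and 623. The Ogt iKO libraries, at 68.9 and 72.5 CPM, both lay above the controls at 35.8 and 40.6 CPM. The means were 70.7 CPM ± 2.52 and 38.2 CPM ± 3.41 (SD, n = 2 each). Mycl was 1.85-fold higher in Ogt iKO, with a log2 fold change of 0.89 (SE 0.0868, 95% interval 0.69 to 1.08, adjusted p = 4.615e-05, edgeR).

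These opposite changes altered the make-up of the activators. To compare genes, CPM were divided by exon length in kb, from the basic transcript set of GENCODE M21. Mycn made up 62.9% and 65.4% of the summed level of the 3 activators in the controls, and 45.2% and 45.5% in Ogt iKO. The share of Mycl was 9.24% and 10.1% in control and 29.3% and 28.3% in Ogt iKO. That of Myc overlapped between the groups, at 25.5% and 26.3% in Ogt iKO and 27.9% and 24.6% in control. Per kb, Mycn stood 6.80 and 6.50 times above Mycl in the controls but 1.54 and 1.61 times above it in Ogt iKO. Mycl was above Myc in both Ogt iKO libraries, at 18.9 and 19.8 CPM per kb against 16.4 and 18.4. In control Myc was the higher of the pair, at 29.5 and 27.2 CPM per kb against 9.79 and 11.1. Summed, the activators reached 64.3 and 70.1 CPM per kb in Ogt iKO, below the 105.9 and 110.5 of the controls. Sums, shares and ratios are given without a test, since the exact permutation test of a single value cannot go below p = 0.333 here.

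**Figure D2:**
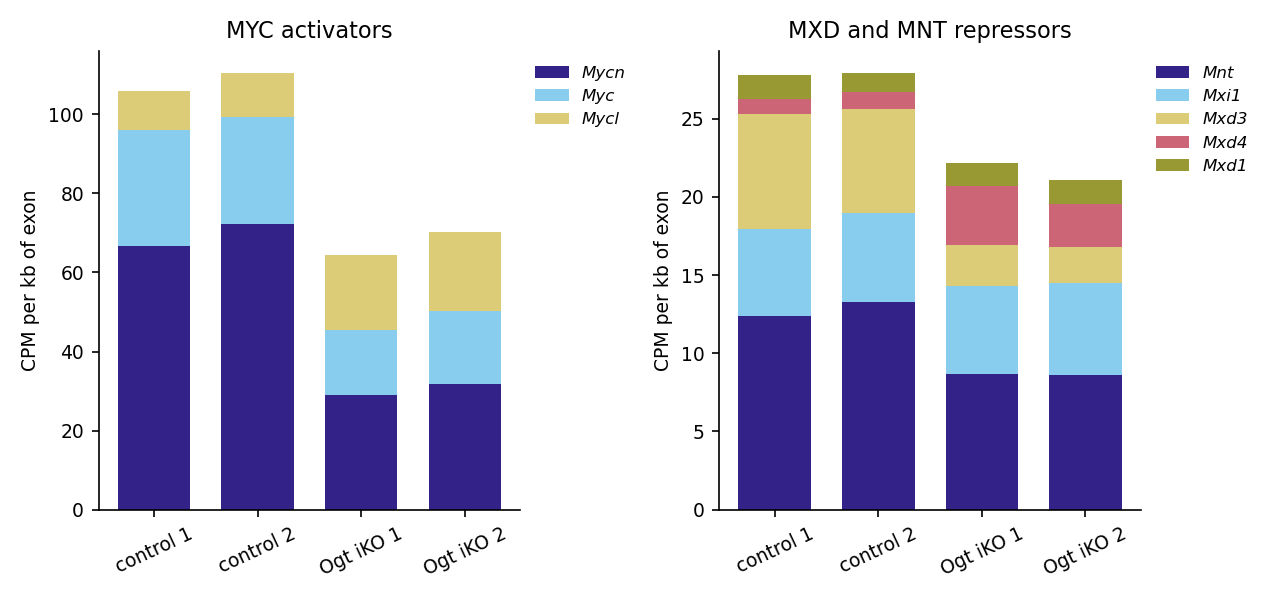
Stacked bars of CPM per kb of exon for the 3 MYC activators (left) and the 5 MXD and MNT repressors (right), with 1 bar a library, 1 colour a gene and axes that start at 0 but differ in scale. Mycn forms 62.9% and 65.4% of the activators in control and 45.2% and 45.5% in Ogt iKO, while among the repressors Mxd4 has a larger part in Ogt iKO and Mxd3 a smaller one.

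Among the repressors, Mxd3 and Mxd4 were called in opposite directions. Mxd3 is known for expression in dividing cells. It lies on chromosome 13 from 55325170 to 55329900 (minus strand), with Ogt iKO counts of 60 and 48 and control counts of 151 and 135. Its level was 3.51 and 3.09 CPM in Ogt iKO and 9.76 and 8.80 CPM in control, with both Ogt iKO libraries below both controls. The Ogt iKO mean was 35.6% of control (log2 fold change of Mxd3 -1.49, SE 0.185, 95% interval -1.91 to -1.06, adjusted p = 0.0001674, edgeR). Exons of Prelid1 on the opposite strand overlap 4.43% of the exon length of Mxd3, taken here from all annotated transcripts and not the basic set. Prelid1 had a log2 fold change of -0.33. Whether the counting used strand is not given in the sources used here.

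Mxd4 encodes a MAX partner known from differentiating cells and rose. The gene, on chromosome 5 from 34176580 to 34187710 (minus strand), had 58 and 64 counts in control and reached 247 and 164 in Ogt iKO. In CPM these were 3.75 and 4.17 in control and 14.45 and 10.6 in Ogt iKO, so the groups did not overlap, although the Ogt iKO libraries differed from each other. The means were 12.5 CPM ± 2.74 and 3.96 CPM ± 0.301 (SD, n = 2 each), a 3.16-fold difference. The log2 fold change of Mxd4 was 1.66 (SE 0.205, 95% interval 1.19 to 2.13, adjusted p = 0.0001597, edgeR). The higher Ogt iKO library was replicate 1, which also had the higher sum of fibroblast markers. Without it the log2 fold change of Mxd4 was 1.42, and Mxd4 was still called. Over all annotated transcripts and not the basic set, exons of an opposite-strand gene overlap 6.06% of the exon length of Mxd4. The same holds for 2.84% of that of Mxi1 and 3.21% of that of Mlxip. These neighbours were not analysed here.

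Mnt, a repressor present in most cell types, had the highest level per kb of the 5 repressors in every library and fell. It lies on chromosome 11 from 74830806 to 74845725 (plus strand), with Ogt iKO counts of 683 and 615 and control counts of 879 and 935. Its level was 39.95 and 39.65 CPM in Ogt iKO and 56.8 and 61.0 CPM in control, with no overlap. The Ogt iKO mean was 67.6% of control, and the log2 fold change of Mnt was -0.56 (SE 0.0781, 95% interval -0.74 to -0.39, adjusted p = 0.0002967, edgeR).

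The other MAX partners, Mxd1 and Mxi1, did not pass the threshold. Mxd1, known from differentiating cells, lies on chromosome 6 from 86647044 to 86669234 (minus strand) and was at 6.90 and 7.29 CPM in Ogt iKO and 7.11 and 5.93 CPM in control. The groups overlapped, and the 95% interval of its log2 fold change of 0.12 ran from -0.28 to 0.53 (adjusted p = 0.5708, edgeR). Mxi1, on chromosome 19 from 53310128 to 53373293 (plus strand), encodes another MAX partner that recruits SIN3. Its level was 37.2 and 38.9 CPM in Ogt iKO and 37.0 and 37.8 CPM in control, which overlapped too. The log2 fold change of Mxi1 was 0.03, with a 95% interval from -0.15 to 0.21 (adjusted p = 0.7876, edgeR).

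Summed per kb, the 5 repressors were at 22.1 and 21.1 CPM per kb in Ogt iKO and at 27.8 and 27.9 in control. Mxd4 made up 3.48% and 3.85% of that sum in control and 16.8% and 12.9% in Ogt iKO. Mxd3 made up 26.5% and 23.7% in control and 11.95% and 11.05% in Ogt iKO. These shares depend on the exon length: with the exons of all annotated transcripts, Mxd4 made up 1.90% and 2.07% in control and 9.33% and 6.98% in Ogt iKO, and Mxd3 17.7% and 15.6% in control and 8.12% and 7.31% in Ogt iKO. The groups were apart in the same direction with both lengths. The ratio of activators to repressors was 2.905 and 3.32 in Ogt iKO and 3.815 and 3.96 in control, so the Ogt iKO libraries lay below the controls. On the log2 scale the mean ratio was 1.64 ± 0.137 in Ogt iKO and 1.96 ± 0.037 in control (SD, n = 2 each), a difference of -0.32. With Mlx and Mlxip added to the repressors the difference was -0.59. A ratio within a library does not depend on how libraries are scaled. Without Ogt iKO replicate 1 the difference was -0.23, and without Ogt iKO replicate 2 it was -0.42.

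**Figure D3:**
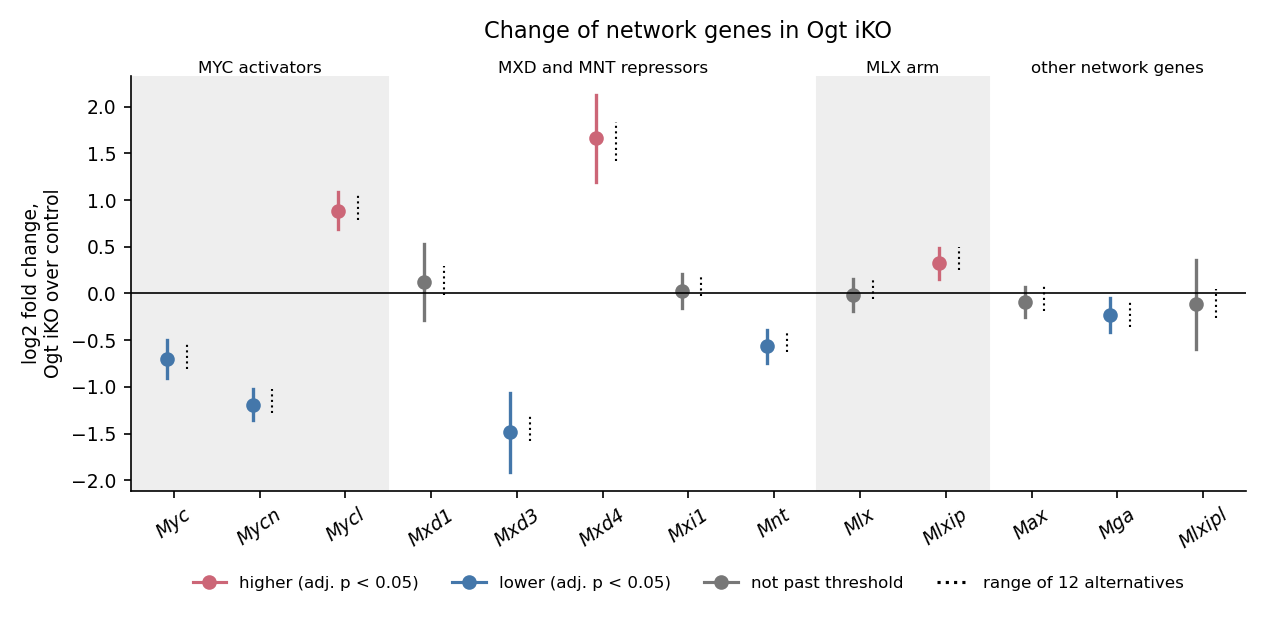
Log2 fold change (Ogt iKO over control) of the 13 network genes as points with 95% interval bars (red higher, blue lower, grey not past the threshold), and the range over 12 alternative fits as dotted lines. Mycl, Mxd4 and Mlxip stay above 0 and Myc, Mycn, Mxd3 and Mnt below it in every alternative, while the ranges of Mxd1, Mxi1, Mlx, Max and Mlxipl cross 0.

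In the MLX arm, Mlxip rose and Mlx did not pass the threshold. Mlxip encodes MondoA, a sensor of glucose phosphates. On chromosome 5 from 123394521 to 123457932 (plus strand), it gave Ogt iKO counts of 1786 and 1466 and control counts of 1206 and 1243. At 104.5 and 94.5 CPM, both Ogt iKO libraries lay above the controls at 77.9 and 81.0 CPM. Mlxip was 1.25-fold higher, with a log2 fold change of 0.32 (SE 0.0722, 95% interval 0.16 to 0.49, adjusted p = 0.0041, edgeR).

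Mlx, the shared partner of this arm, lies on chromosome 11 from 101086707 to 101092207 (plus strand). Its level was 50.4 and 51.2 CPM in Ogt iKO and 50.4 and 52.5 CPM in control, and the groups overlapped. The log2 fold change of Mlx was -0.02, with a 95% interval from -0.19 to 0.15 (adjusted p = 0.8287, edgeR). Its sign turned when libraries were scaled by totals (0.15) or upper quartiles (0.02). Exons of Psmc3ip on the opposite strand overlap 19.3% of the exon length of Mlx over all annotated transcripts, so the count of Mlx is uncertain if strand was not used. Psmc3ip itself was lower, at 25.5 and 26.2 CPM in Ogt iKO against 35.8 and 34.0 CPM in control (log2 fold change -0.43, adjusted p = 0.001892, edgeR). The ratio of Mlxip to Mlx per kb was 0.510 and 0.454 in Ogt iKO and 0.3805 and 0.3795 in control.

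Max, Mga and Mlxipl complete the network. Max, the common partner of the MYC and MXD proteins, was at 102 and 114 CPM in Ogt iKO and 111 and 118 CPM in control, and the groups overlapped. Its log2 fold change was -0.09 (95% interval -0.25 to 0.07, adjusted p = 0.302, edgeR), but 0.08 under library totals, and it passed the threshold without Ogt iKO replicate 2, at -0.19. Per kb, the summed activators stood at 1.23 and 1.21 times the level of Max in Ogt iKO, against 1.87 and 1.83 times in control. With the exons of all annotated transcripts these were 1.99 and 1.95 times against 2.985 and 2.92 times. Mga, a MAX partner in a variant Polycomb complex, was lower in Ogt iKO, at 290.3 and 291.3 against 313 and 371 CPM (log2 fold change -0.23, adjusted p = 0.0287, edgeR). The call of Mga was lost without control replicate 2 (-0.12), under library totals (-0.07) and under upper quartiles (-0.19). Mlxipl was scarce, at 4.04 and 4.77 CPM in Ogt iKO and 5.17 and 4.37 CPM in control, with overlapping groups (log2 fold change -0.12, adjusted p = 0.639, edgeR).

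Ordered by mean level per kb, the controls ran from Mycn (69.4 CPM per kb) through Max (58.55), Myc (28.35), Mlx (25.9), Mga (24.55), Mnt (12.8), Mycl (10.45), Mlxip (9.84), Mxd3 (6.99), Mxi1 (5.62), Mxd1 (1.40) and Mlxipl (1.32) to Mxd4 (1.02). Neighbours whose control libraries overlapped were Mlx and Mga, Mycl and Mlxip, and Mxd1 and Mlxipl. In Ogt iKO the order was Max (55.1 CPM per kb), Mycn (30.5), Mlx (25.5), Mga (20.9), Mycl (19.3), Myc (17.4), Mlxip (12.3), Mnt (8.67), Mxi1 (5.72), Mxd4 (3.22), Mxd3 (2.49), Mxd1 (1.52) and Mlxipl (1.22). There each gene's libraries lay above those of the next, with the smallest ratio of means 1.08 (Mga over Mycl). With the exons of all annotated transcripts the Ogt iKO libraries of Mycn and Mlx overlapped, as did those of Mxd4 and Mxd3, and in control Myc and Mlx overlapped in place of Mlx and Mga. Mxd4 was the lowest of the 13 in control with either length, and its mean stood above those of Mxd3, Mxd1 and Mlxipl in Ogt iKO.

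Proteins that work with the network, and its known targets, were read from lists. These lists were chosen with earlier results of these data known, so the shares called in them are descriptions and not tests. Of 17 genes for cofactors of MYC and MXD proteins, 5 were higher and 9 lower, beside 33.2% higher and 32.0% lower over all genes tested, and the median log2 fold change was -0.18 against 0.02. The number higher was 3 under DESeq2, without Ogt iKO replicate 2 and without control replicate 1, and the median was -0.0158 under library totals. Kat2a, a histone acetyltransferase recruited by MYC, was at 73.3 and 73.6 CPM in Ogt iKO and 178 and 172.5 CPM in control (log2 fold change -1.25, adjusted p = 1.306e-06, edgeR). Sin3a, the corepressor scaffold bound by MXD and MNT proteins, was at 159.2 and 158.7 CPM in Ogt iKO and 331 and 336 CPM in control (log2 fold change -1.07, adjusted p = 2.065e-06, edgeR). Both fell, with no overlap between groups. Ruvbl2, an ATPase of chromatin complexes, and Smarcb1, a SWI/SNF subunit that binds MYC, fell to 58.2% and 64.7% of control. The higher genes, named after their values were seen, were Trrap (log2 fold change 0.51) and Ep400 (0.46), large subunits of acetyltransferase complexes, Sin3b (0.39), a relative of Sin3a, Zbtb17 (0.32), which encodes the MYC partner Miz1, and Mycbp (0.24), a MYC-binding protein.

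Of 16 genes for the turnover of MYC protein, 2 were higher and 10 lower (median log2 fold change -0.27). That is 12.5% higher and 62.5% lower, where all genes tested had 33.2% and 32.0%, and 6 rather than 10 were lower under library totals. Fbxw7, the substrate receptor of the ubiquitin ligase that marks MYC for degradation, rose from 83.5 and 82.9 CPM in control to 127 and 131 CPM in Ogt iKO (log2 fold change 0.63, adjusted p = 3.652e-05, edgeR). The other higher gene was Fbxo32, an F-box protein, at 12.5 and 11.5 CPM in Ogt iKO against 4.59 and 4.24 CPM in control (log2 fold change 1.44). Usp28, a deubiquitinase that opposes FBXW7, fell to 64.5% of control (log2 fold change -0.63), and Usp36, a nucleolar deubiquitinase of MYC, fell to 51.0% (log2 fold change -0.97). Aurka, a kinase that protects MYCN from degradation, fell to 59.8% of control (log2 fold change -0.74). Genes that promote the degradation of MYC fell too: Skp2, a ligase subunit, to 64.25% of control, Ppp2r5a, a phosphatase subunit, to 65.05%, Gsk3a, a kinase that marks MYC for FBXW7, to 78.6% and Huwe1, a ligase, to 82.5%. Genes known to protect MYC and genes known to promote its degradation were thus both among the lower ones. These are transcript levels, and MYC protein was not measured.

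Genes known as MYC targets were mostly lower, in lists chosen with earlier results of these data known. Of 34 ribosome biogenesis genes, 32 were lower and 1 higher, where 32.0% of all genes tested were lower. Their median log2 fold change was -0.50. Under library totals 25 were lower, and under upper quartiles and under DESeq2 29 were lower. The higher gene was Utp20, at 0.41, and Bysl did not pass the threshold, at -0.09. Rrp9, a protein of the U3 ribonucleoprotein that processes ribosomal RNA, fell from 130.0 and 128.2 CPM in control to 27.1 and 28.8 CPM in Ogt iKO (log2 fold change -2.21, adjusted p = 4.053e-07, edgeR). Rcl1, another processing factor, fell to 43.3% of control, Npm1 (nucleophosmin) to 50.5% and Tcof1, which supports ribosomal DNA transcription, to 53.7%. Npm1 has near-identical copies in the genome, so its count is uncertain.

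Of 30 metabolic and growth genes known as MYC targets, 26 were lower (86.7%, against 32.0% of all genes tested) and 1 higher (3.33%, against 33.2%), with a median log2 fold change of -0.66. Ldha, a lactate dehydrogenase subunit, fell from 975 and 938.5 CPM in control to 338 and 371 CPM in Ogt iKO (log2 fold change -1.43, adjusted p = 1.254e-06, edgeR), and near-identical copies make its count uncertain too. Slc7a5, an amino acid transporter, fell to 41.2% of control, Shmt2, a mitochondrial serine hydroxymethyltransferase, to 43.7% and Odc1, the first enzyme of polyamine synthesis, to 45.7%. The higher gene was Ccnd2, a D-type cyclin, with 87.45 CPM in Ogt iKO replicate 1, 43.3 in replicate 2 and 40.6 and 41.2 in control (log2 fold change 0.68, adjusted p = 0.04505, edgeR), and no gene of the list was called higher without Ogt iKO replicate 1, without either control replicate, under DESeq2, with no filter on low counts or with a robust spread. Among genes with a promoter window, CACGTG was held by 7 of 28 ribosome biogenesis genes (25%) and 10 of 26 metabolic and growth genes (38.5%), against 2187 of all 27025 genes (8.09%). Some genes have several windows. Counted by window, the shares were 7 of 35 (20%) and 13 of 41 (31.7%), against 7.15% of all windows. The genes were listed as known MYC targets and MYC binds E-boxes, so these shares do not test the lists.

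Of 10 genes known to be repressed by MYC with its partner Miz1, 6 were higher and 3 lower (median log2 fold change 0.76), beside 33.2% higher and 32.0% lower over all genes tested. Mxd4 is among the 10. Cdkn1a, an inhibitor of cyclin-dependent kinases, rose from 97.5 and 98.4 CPM in control to 348 and 343 CPM in Ogt iKO (log2 fold change 1.82, adjusted p = 2.855e-07, edgeR). Cdkn1c and Cdkn2b, inhibitors of the same kind, rose 3.28-fold and 3.60-fold. The other higher genes were Cebpa (log2 fold change 1.00), a differentiation factor, and the integrin gene Itgb1 (0.53). Gadd45a, a stress-response gene, fell to 53.3% of control, and Ndrg1 (-0.85) and the kinase inhibitor gene Cdkn1b (-0.48) were lower too. The kinase inhibitor genes of the list thus went in opposite directions.

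The 2 genes known as MondoA targets were called in opposite directions. Arrdc4, an arrestin-domain protein, fell from 50.4 and 54.9 CPM in control to 14.97 and 14.96 CPM in Ogt iKO (log2 fold change -1.81, adjusted p = 1.663e-06, edgeR). Txnip, which limits glucose uptake, was at 316 and 282 CPM in Ogt iKO and 262 and 265 CPM in control (log2 fold change 0.18, adjusted p = 0.03933, edgeR). The call of Txnip was lost without Ogt iKO replicate 1 (0.10), without control replicate 1 (0.17), without control replicate 2 (0.18) and with no filter on low counts (0.17).

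**Figure D4:**
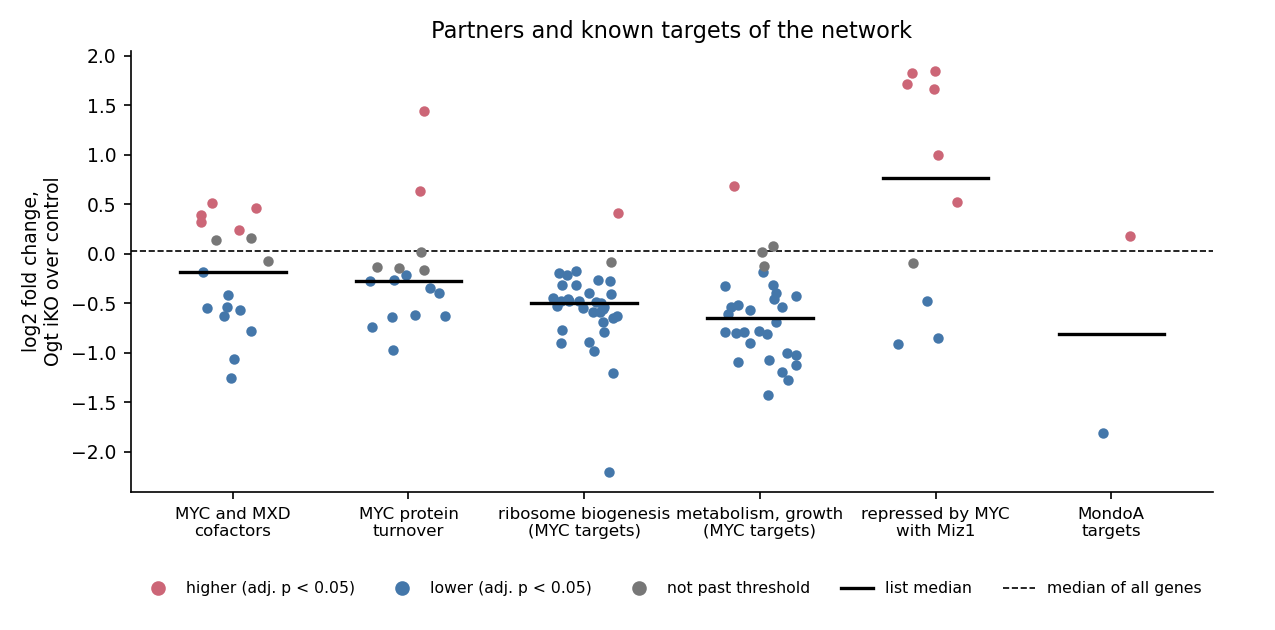
Log2 fold change (Ogt iKO over control) of each gene in 6 lists of network partners and known targets, 1 point a gene (red higher, blue lower, grey not past the threshold), with a solid line at each list's median and a dashed line at the median of all genes tested. Ribosome biogenesis and metabolic genes lie mostly below 0, with medians of -0.50 and -0.66, and the genes known to be repressed by MYC with Miz1 have a median of 0.76. The lists were chosen with earlier results of these data known.

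Markers of the stem cells and of the feeders were read beside these results. All 12 mESC markers were detected in every library, and 11 of them were lower in Ogt iKO (91.7%, against 32.0% of all genes tested), the exception being Dppa5a, at -0.03. Their summed levels were 2558 and 2897 CPM in Ogt iKO against 4658 and 4669 CPM in control. Klf4, Sox2, Nanog and Tdgf1 were at 28.4%, 33.2%, 36.2% and 45.6% of control. All 20 fibroblast markers had at least 1 count in every library, and only Fap was under the floor of 3 counts in a library, with 1 count in Ogt iKO replicate 2. Their summed level was 3870 CPM in Ogt iKO replicate 1, 1458 CPM in Ogt iKO replicate 2, and 1530 and 1687 CPM in the controls. With all libraries 5 fibroblast markers were higher (25%, against 33.2% of all genes tested), namely Tagln (log2 fold change 2.60), Acta2 (1.72), Pdgfrb (1.61), Twist1 (1.45) and Sparc (0.82), and 0 were lower. For each of these 5, both Ogt iKO libraries lay above both controls. Fewer fibroblast markers were higher with a robust spread. Without Ogt iKO replicate 2, 18 were higher, and without Ogt iKO replicate 1, 14 were lower. The sort's antibodies bind the products of Thy1 (CD90.2), in the fibroblast list, and Epcam (CD326), in the mESC list. The labels give CD90.2 as the marker of the stem cells and CD326 as that of the feeders, the reverse of these lists, so the labels alone do not tell which fraction the gate kept. Epcam was at 280.4 and 287 CPM in Ogt iKO and 347 and 307 CPM in control, and Thy1 at 25.6 and 8.90 CPM in Ogt iKO and 15.6 and 15.65 CPM in control. Pou5f1, a defining stem cell gene, was at 489.5 and 575 CPM in Ogt iKO and 894 and 849.6 CPM in control. Without Ogt iKO replicate 1 the 7 members were still called, with the log2 fold change of Mlxip nearest to 0, at 0.26. The part of these markers in the changes of the lists of partners and targets was not tested.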

How the data were processed

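Polyadenylated RNA of 4 libraries (TruSeq stranded mRNA kit, per the labels' protocols) was read from whole-number counts per gene symbol that the authors deposited, 1 table a library. The submitters' processing notes name STAR, Picard and mm10. Their roles, the annotation and the strand setting are not given in the sources used here. Samples were grouped by the treatment label.

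The 4 tables were fitted together in edgeR 4.0.16 (R 4.3.3): TMM scaling, filterByExpr, quasi-likelihood test, and Benjamini-Hochberg adjustment over 14525 genes with a threshold of 0.05. The procedure was tested on simulated data in which a small part of the genes had known fold changes. That test does not cover scaling where most genes change. Levels per kb used GENCODE M21 exon lengths. No row lacked a gene name. Intervals of fold changes are 95%. Alternatives were other scalings, DESeq2 1.42.0, other filters, a robust spread, a replicate block and leaving out each library. Added after seeing the data was exon length from all transcripts. The members and gene lists were chosen with earlier results of these data known. Named genes are the network, Ogt and up to 4 genes per other list with the smallest adjusted p. Genes outside this rule were named after their values were seen, or, for Prelid1 and Psmc3ip, for their overlap.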

Additional observations from a re-analysis of the deposited data

How the results depend on the processing

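Of 528 values of single genes (44 genes, 12 alternatives), 510 kept their direction and side of the threshold, 8 lost and 1 gained a call, and 9 changed sign. The 7 called members kept direction and call throughout. Sign changes were those of Mxd1 without control replicate 2 (-0.01309), Mxi1 without Ogt iKO replicate 2 (-0.03116), Mlx under library totals (0.15), upper quartiles (0.0219) and without control replicate 2 (0.0008523), Max under library totals (0.0805), and Mlxipl under library totals (0.0519), without Ogt iKO replicate 1 (0.006531) and without control replicate 1 (0.002208). With 1 library left out, Mxd1 ran from -0.01309 to 0.249, Mxi1 from -0.03116 to 0.0647, Mlx from -0.0572 to 0.0008523 and Mlxipl from -0.264 to 0.006531. Leaving out 1 library at a time, genes higher numbered 3943 to 4780 and genes lower 3940 to 4722, and DESeq2 gave 3606 and 3921. With the replicate number as a block there were 4922 higher and 4719 lower, with 3 and 4 members; same-numbered libraries had a correlation of deviations of 0.0859, and the labels tie them by number alone. Library totals alone gave medians of -0.53 for the activators, 0.19 for the repressors, 0.32 for the MLX arm, 0.0519 for Max, Mga and Mlxipl, -0.0158 for cofactors, -0.10 for turnover, -0.33 for ribosome biogenesis, -0.49 for metabolic genes, -0.65 for MondoA targets and -0.56 for mESC markers, with 0 lower among Max, Mga and Mlxipl, 6 lower in turnover and 3 higher in metabolic genes. The shift follows from the scaling, which moves all genes. Upper quartiles gave 0.0676 for the repressors, -0.14 for cofactors and 0 lower among Max, Mga and Mlxipl. DESeq2 gave 3 cofactors and 0 metabolic genes higher, no filter gave 0 metabolic genes and 0 MondoA targets higher, and the robust spread gave 0 metabolic genes and 3 fibroblast markers higher. Leaving out 1 library gave these ranges: repressor median -0.03116 to 0.0647; Max, Mga and Mlxipl 0 to 2 lower and median -0.261 to -0.007245; cofactors 3 to 7 higher; turnover median -0.329 to -0.273; ribosome biogenesis median -0.569 to -0.454; metabolic genes 0 to 1 higher and median -0.743 to -0.596; MondoA targets 0 to 1 higher; fibroblast markers 5 to 18 higher, 0 to 14 lower and median -0.860 to 0.957; mESC median -0.817 to -0.660. The difference in log2 ratio of activators to repressors was -0.59 with the MLX arm added to the repressors, and the difference in the Mycn share was -21.4 percentage points when counts were not divided by length, against -18.8. Both of these alternatives change the definition of the quantity. Apart from these and the shift by scaling, the cause of the moves was not tested. Counting depth limits Mxd1, Mxd3, Mxd4 and Mlxipl most, with at most 247 counts in any library.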
